A study of Mus musculus with 10 samples.

Results

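Collagen chains and the enzymes that hydroxylate, fold, cleave and crosslink them were read in whole-lung RNA of mice labelled as epithelial IRE1α knockouts and of floxed control mice. The members were 40 genes picked by symbol, 28 collagen chains and 12 processing genes, out of 27179 Entrez genes with counts; all 40 were present in the count table. EpithelialKO mice (n = 5) carried Shh Cre/+ with IRE1α fl/fl, so Cre was driven from the Shh locus, which is active in the developing lung epithelium. Flox mice (n = 5) carried Shh +/+ with the same IRE1α fl/fl alleles and no Cre, so the floxed alleles were common to both groups. The labels give neither the age nor the sex of the mice. Each library came from 1 mouse, and the comparison asked how the lung transcriptome differs between Shh Cre/+ and Shh +/+ mice with floxed Ern1 (the gene of IRE1α). No group carried Shh Cre/+ without the floxed alleles, so the Shh Cre allele, Cre itself and loss of Ern1 cannot be told apart.

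Collagens are trimers, most of them secreted and some transmembrane. Their chains are hydroxylated on proline by P4H enzymes and on lysine by PLOD enzymes in the endoplasmic reticulum, folded with the chaperone HSP47 (Serpinh1), trimmed outside the cell by Bmp1 with the help of the Pcolce enhancers, and crosslinked by lysyl oxidases. In the lung, fibrillar collagens I, III and V come mainly from fibroblasts and give the tissue its tensile strength, whereas collagen IV forms the basement membrane between the alveolar epithelium and the capillaries. IRE1α senses unfolded protein in the endoplasmic reticulum and splices Xbp1 mRNA, whose product XBP1 activates genes of the secretory pathway.

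The 150 bases before the annotated start (RefSeq, GRCm38.p6, gene strand, 5′ to 3′) are shown for P4ha2, the member with the highest fold change, and for Col1a2, a chain of collagen I with a fold change of the opposite sign. Capitals mark CCAAT, the box that NF-Y binds, and ACGTG, the core shared by XBP1 and hypoxia elements, on either strand (CACGT is ACGTG on the other strand).
P4ha2, chr11:54100774-54100923, plus strand: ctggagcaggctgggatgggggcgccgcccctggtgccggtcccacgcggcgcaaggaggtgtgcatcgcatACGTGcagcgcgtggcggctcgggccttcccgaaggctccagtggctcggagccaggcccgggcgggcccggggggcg
Col1a2, chr6:4505468-4505617, plus strand: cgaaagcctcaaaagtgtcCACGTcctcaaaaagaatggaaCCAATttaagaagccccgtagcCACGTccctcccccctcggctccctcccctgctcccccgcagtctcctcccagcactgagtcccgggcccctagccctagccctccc
P4ha2 held 1 ACGTG, 78 to 74 bases before the start, and Col1a2 held 1 CCAAT, 109 to 105 bases before it, with ACGTG on the other strand at 131 to 127 and at 87 to 83 bases. Over 250 bases and both strands, CCAAT stood in 11 of the 31 member promoters with a sequence (35.5%), against 34.5% of 27025 promoters. ACGTG stood in 7 of the 31 (22.6%; Col1a2, Col4a4, Col5a1, P4ha1, P4ha2, Plod3 and Serpinh1), against 16.6% of all promoters. The longer elements through which ATF6 and XBP1 act, the ER stress response element, searched with its standard spacing, and TGACGTGG, which hold CCAAT and ACGTG within them, stood in 0 of the 31 member promoters, and in 0.122% and 0.503% of all. These are matches of letters within short windows.

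Library totals ran from 16234895 to 18870247 counts in EpithelialKO and from 14983829 to 21224412 counts in Flox mice. Ern1 lay between 10.7 and 26.1 CPM (counts scaled to library size by TMM) in EpithelialKO lungs and between 8.05 and 20.5 CPM in Flox lungs, so its whole-gene count did not separate the groups and does not check the genotype labels, which leave the floxed exons unnamed. Surfactant and other AT2 markers summed to 49132 to 60719 CPM in EpithelialKO and 40879 to 49006 CPM in Flox lungs, which fits lung tissue. Xist reached 3949 and 4866 counts in Flox mice 4 and 6, whose Y-linked genes had 0 counts, whereas every EpithelialKO mouse had at least 2775 Y-linked counts and at most 40 Xist counts. The other 3 Flox mice resembled EpithelialKO mice in this measure, so results are also given without Flox mice 4 and 6.

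Per length of exon, the member with the highest level was the chaperone Serpinh1, at 108 CPM per kb in EpithelialKO and 104 CPM per kb in Flox lungs (group means). The basement membrane chain Col4a1 came next among all members, at 55.4 CPM per kb in EpithelialKO and 64.6 in Flox lungs. It was followed by the cleavage enhancer Pcolce (45.3 in EpithelialKO and 59.6 in Flox lungs), by Col4a2 (47.5 and 55.7) and by Col3a1, the main chain of fibrillar collagen III (42.9 and 55.4), all on the CPM per kb scale with EpithelialKO first. Col1a1 stood at 11.7 CPM per kb in EpithelialKO and 17.2 in Flox lungs, below Col3a1 in both groups. At the low end, Col11a1, a minor fibrillar chain typical of cartilage, had 8 counts in all over EpithelialKO and 13 over Flox mice, and the prolyl hydroxylase subunit P4ha3 had 56 counts in either group. These 2 genes were too low to be tested, which left 38 members.

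**Figure D1:**
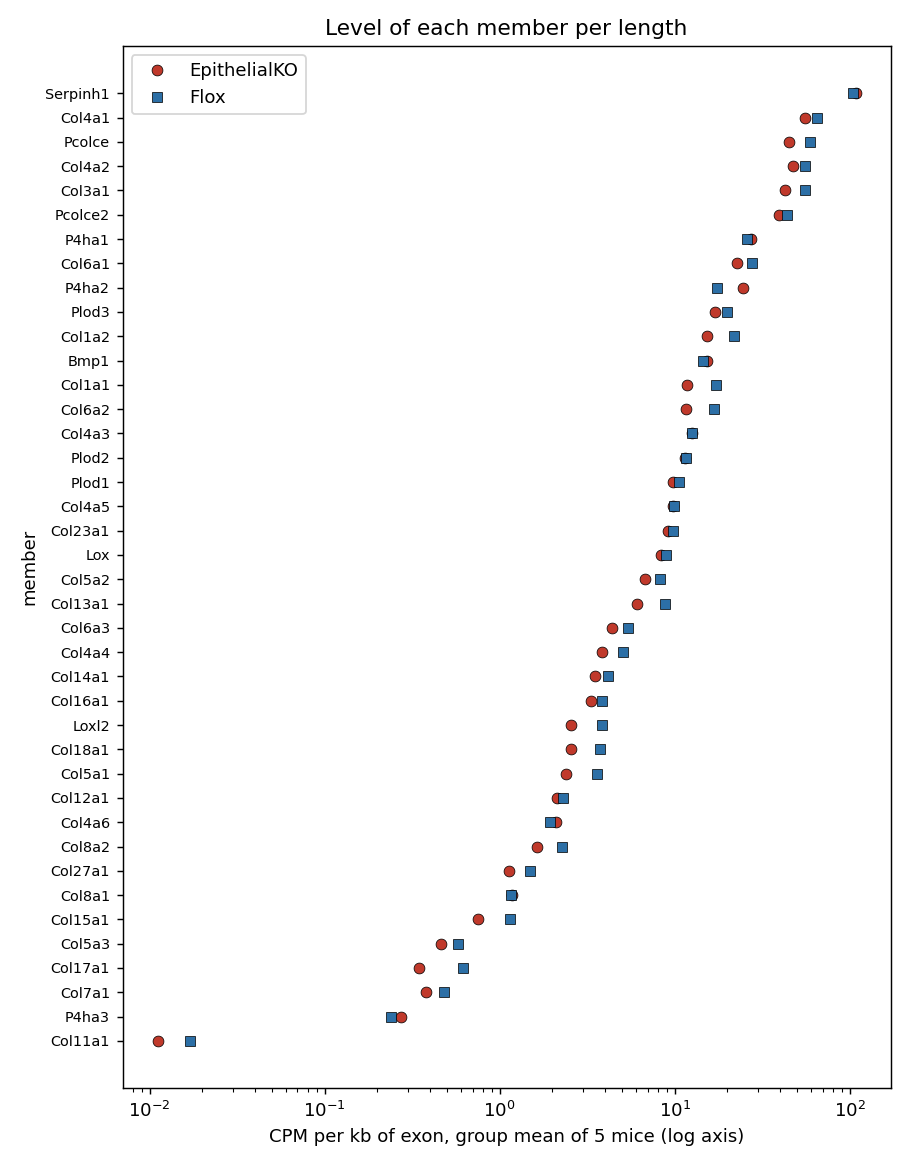
Group mean level of all 40 members in CPM per kb of exon (log axis), ordered by the mean over all mice, with circles for EpithelialKO and squares for Flox (n = 5 mice each). Serpinh1 lies at the top, and P4ha2 lies to the right in EpithelialKO while most collagen chains lie to the left.

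Most collagen chains had lower mean levels in EpithelialKO lungs, but no member passed edgeR's adjusted threshold over all genes, whereas 7 passed that of DESeq2. Of the 27 chains tested, 25 had a negative log2 fold change of EpithelialKO over Flox (median -0.33). The lowest edgeR p values among the chains were those of Col5a1, Col13a1 and Col18a1, followed by both chains of collagen I. The 11 processing genes tested were mixed, with 7 negative and 4 positive (median -0.09), and the prolyl hydroxylase P4ha2 had the highest fold change of all members. Over all 38 members tested, 32 were negative with a median of -0.26, against 49.9% negative and a median of 0.00084 over the 15301 genes tested.

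The count of members past an adjusted p of 0.05 was 0 in edgeR's quasi-likelihood test with Benjamini-Hochberg adjustment (lowest adjusted p = 0.106), where 0.0392% of all genes passed, 0.0327% as lower and 0.00654% as higher. At an unadjusted p under 0.05, 13 of the 38 were lower in EpithelialKO, against 6.52% of all genes, and 1 was higher, against 5.87%. The Wald test of DESeq2 gave an adjusted p for 11352 genes, 33 of them members. Of these, 6 members passed the adjusted threshold with lower levels in EpithelialKO (Col1a1, Col1a2, Col5a1, Col6a2, Col13a1 and Col18a1), where 1.49% of those genes did. P4ha2 was the 1 member that passed with a higher level, where 0.934% of those genes did. All 5 EpithelialKO values lay below all 5 Flox values in 3 members (Col5a1, Col13a1 and Col17a1), against 1.48% of all genes, and lay above them in 0 members, against 1.63%. The edgeR count of 13 was 8 without Flox mouse 6 alone, where 5.10% of all genes were lower at that p. It was 6 without Flox mice 4 and 6, against 4.12% of all genes, and 8 with the class by Xist and Y-linked counts as a covariate, against 4.66%. Flox mice 4 and 6 alone made up the class of high Xist, so both fits compare EpithelialKO with the other Flox mice and are not separate checks. In bulk RNA, fewer cells of a type and less RNA per cell cannot be told apart.

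**Figure D2:**
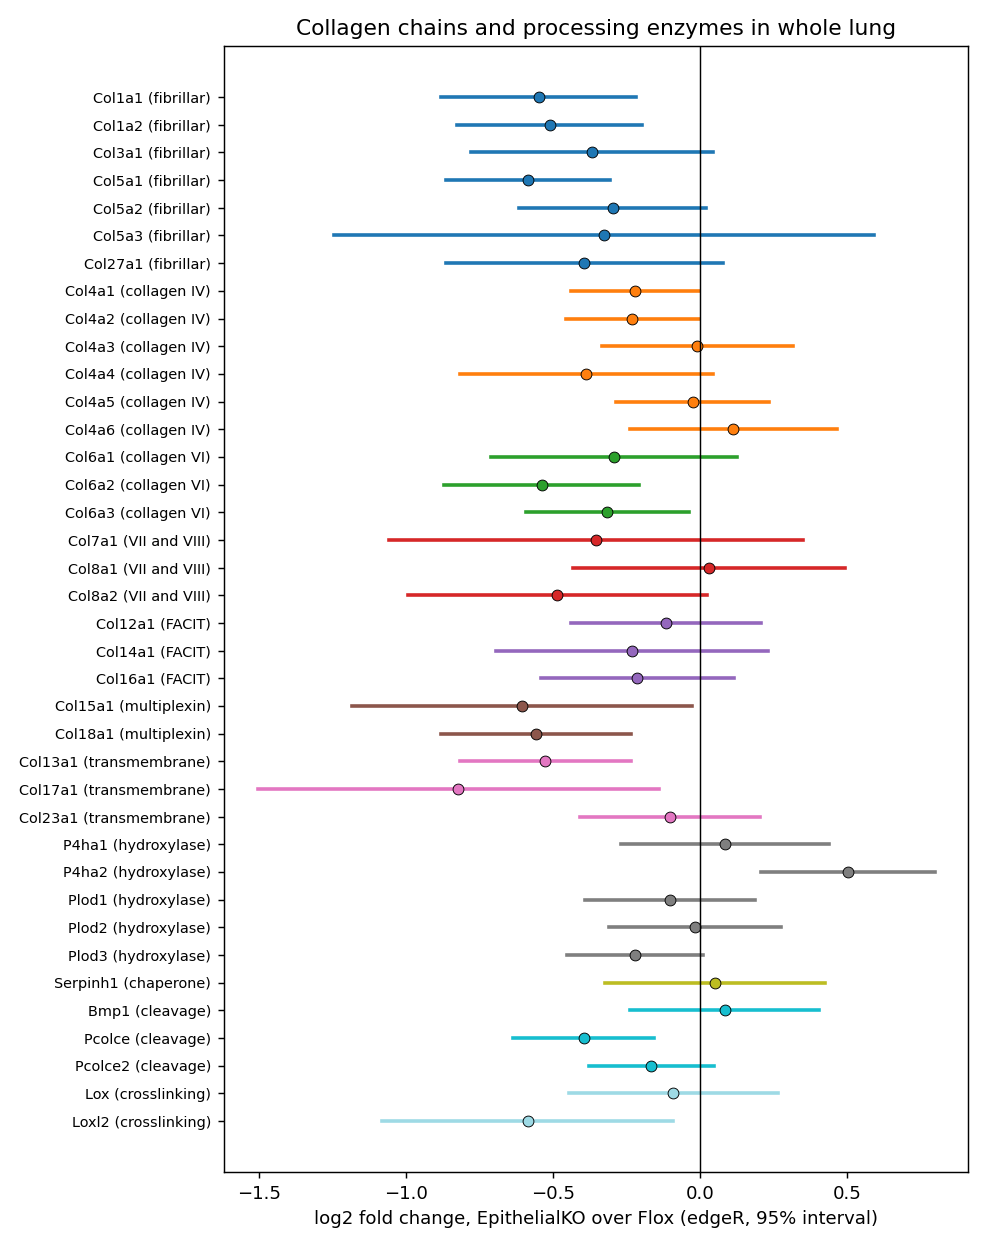
Log2 fold change of EpithelialKO over Flox with its 95% interval in edgeR for the 38 members tested, coloured by class. The points of 32 members lie left of 0, and P4ha2 lies farthest to the right at 0.50.

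The fibrillar chains all had negative fold changes. All 7 tested were negative, against 49.9% of all genes, from -0.59 to -0.30 with a median log2 fold change of -0.39. Of the 7, 3 were lower at an unadjusted p under 0.05, against 6.52% of all genes. Values per mouse are listed below in the order of EpithelialKO mice 17, 18, 20, 21 and 22 and of Flox mice 2, 3, 4, 5 and 6. Col5a1 (GRCm38 chromosome 2, 27886381 to 28039510), a chain of collagen V that starts collagen I fibrils, had 18.7, 22.3, 20.4, 19.5 and 21.3 CPM in EpithelialKO lungs, against 25.8, 26.3, 28.6, 36.5 and 36.3 CPM in Flox lungs. Every EpithelialKO value lay below every Flox value, and the EpithelialKO mice were close together while Flox mice 5 and 6 were high. Its log2 fold change was -0.59 ± 0.13 (SE), with an edgeR adjusted p of 0.106 (unadjusted p = 3.73e-04), and -0.53 without Flox mice 4 and 6.

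Col1a1 (chromosome 11, 94936224 to 94953042), the chain present in double dose in collagen I, had 84.6, 78.8, 55.7, 68.9 and 59.8 CPM in EpithelialKO lungs, against 91.7, 74.9, 122, 88.3 and 132 CPM in Flox lungs. Col1a2 (chromosome 6, 4505618 to 4541543), its partner, had 81.5, 104, 61.7, 88.6 and 85.1 CPM in EpithelialKO lungs, against 121, 93.3, 137, 97.5 and 152 CPM in Flox lungs. For both genes the groups overlapped, Flox mice 4 and 6 had the highest values and EpithelialKO mouse 20 the lowest. Col1a1 averaged 69.6 ± 12.2 CPM in EpithelialKO and 102 ± 24.2 CPM in Flox lungs (SD, n = 5 each), with -0.55 ± 0.16 on the log2 scale (SE, edgeR adjusted p = 0.166). Col1a2 averaged 84.2 ± 15.3 CPM in EpithelialKO and 120.1 ± 25.0 CPM in Flox lungs (SD, n = 5 each), with -0.51 ± 0.15 (SE, edgeR adjusted p = 0.171). Without Flox mice 4 and 6 the log2 fold changes were -0.29 for Col1a1 and -0.30 for Col1a2.

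Col3a1 (chromosome 1, 45311538 to 45349706) had 256, 192, 236, 231 and 278 CPM in EpithelialKO lungs, against 225, 231, 361, 253 and 471 CPM in Flox lungs. Flox mice 4 and 6 stood far above the rest, and the other 3 Flox mice lay within the EpithelialKO range. In log2 terms its difference, -0.37 ± 0.19 (SE, edgeR adjusted p = 0.458), was -0.16 without Flox mouse 6 and 0.017 without Flox mice 4 and 6. Its neighbour on chromosome 1, Col5a2 (45374331 to 45503282), the partner chain of collagen V, had 42.0, 39.5, 39.6, 49.1 and 52.6 CPM in EpithelialKO lungs, against 43.5, 41.3, 62.3, 52.9 and 73.9 CPM in Flox lungs. The groups overlapped, with Flox mice 4 and 6 again the highest. Col5a2 had a log2 fold change of -0.30 (edgeR adjusted p = 0.436), which was -0.17 without Flox mouse 6 and -0.040 without Flox mice 4 and 6. For Col3a1 and Col5a2 the fold change thus lay near 0 without those mice, and for Col5a1 it was -0.53. The low Col5a3 (2.81 CPM in EpithelialKO and 3.55 CPM in Flox lungs) had a log2 fold change of -0.33 with a 95% interval from -1.25 to 0.59. Col27a1, a fibrillar chain of cartilage and other tissues, averaged 8.61 CPM in EpithelialKO and 11.3 CPM in Flox lungs, with a log2 fold change of -0.39 (95% interval from -0.87 to 0.080).

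**Figure D3:**
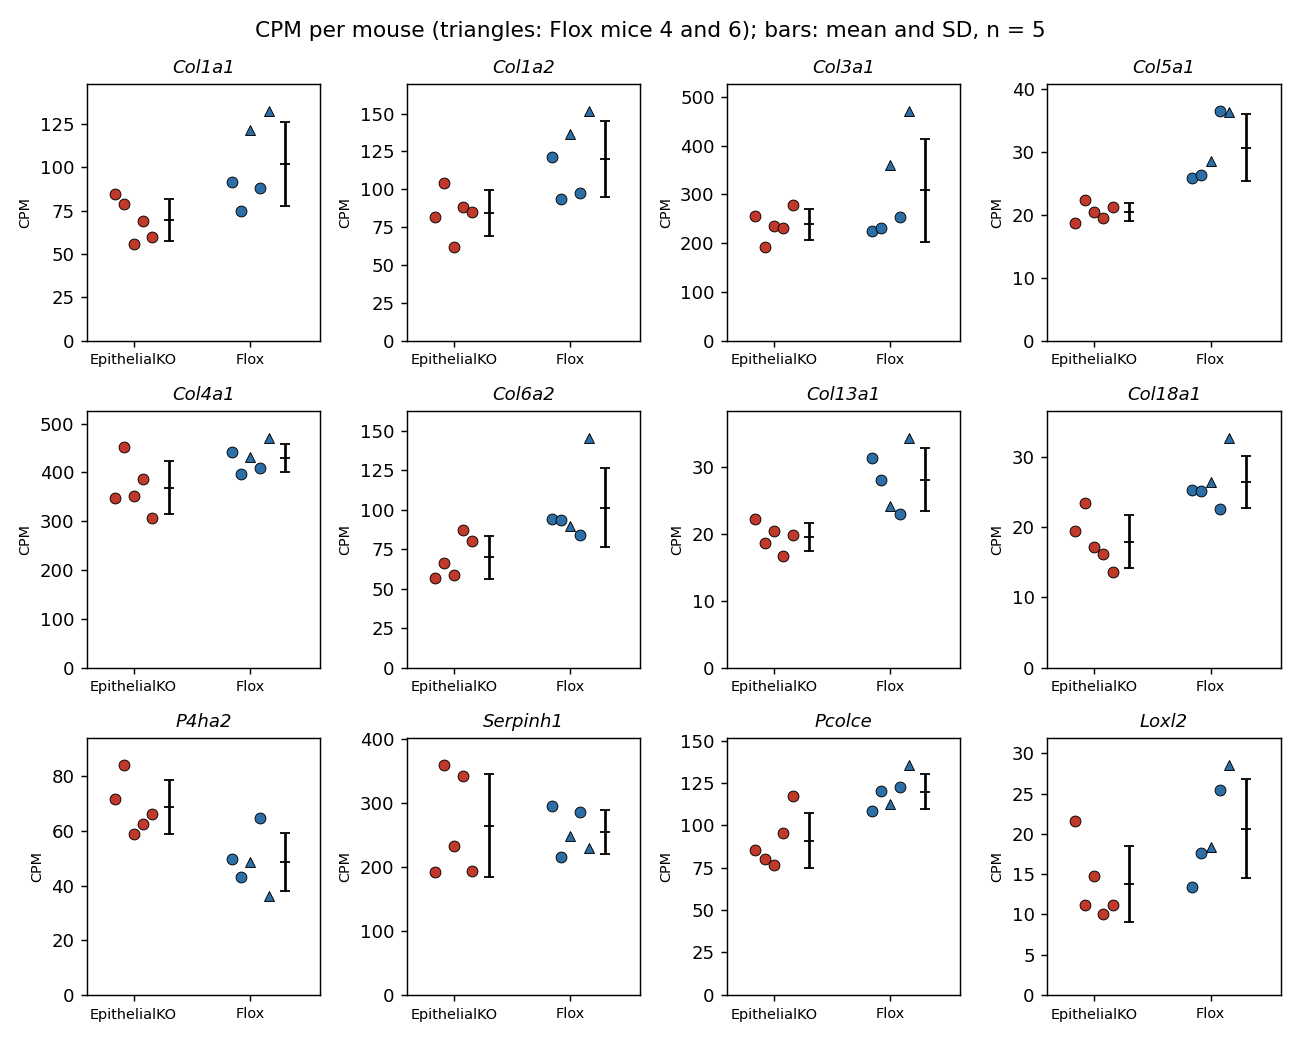
CPM in every mouse for 12 members, with EpithelialKO left of Flox, triangles for Flox mice 4 and 6, and bars for the mean and SD (n = 5 each). Col5a1 and Col13a1 show no overlap, Col3a1 is high in Flox mice 4 and 6, and P4ha2 is higher on average in EpithelialKO.

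Collagen IV, the sheet-forming collagen of basement membranes, had 5 of 6 chains negative, against 49.9% of all genes. The median log2 fold change over the 6 chains was -0.12. That median was -0.16 without EpithelialKO mouse 18 and -0.052 without EpithelialKO mouse 20. Col4a1 and Col4a2, the pair found in nearly all basement membranes, lie head to head on chromosome 8 (11198423 to 11312889 and 11312805 to 11449287). Col4a1 had 348, 452, 352, 386 and 306 CPM in EpithelialKO lungs, against 441, 397, 432, 409 and 470 CPM in Flox lungs. Col4a2 had 285, 364, 253, 341 and 288 CPM in EpithelialKO lungs, against 387, 336, 358, 319 and 395 CPM in Flox lungs. EpithelialKO mouse 18 lay above the Flox mean for both genes, and the other 4 EpithelialKO mice lay below it. The log2 fold changes were -0.22 ± 0.10 for Col4a1 and -0.23 ± 0.11 for Col4a2 (SE; edgeR adjusted p = 0.396 and 0.394).

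Col4a3 and Col4a4 join Col4a5 in the trimer of the specialised basement membranes of the lung alveolus and kidney glomerulus. They also lie head to head, on chromosome 1 (82586921 to 82722059 and 82448419 to 82587034). Col4a3 had 89.1, 113, 72.0, 127 and 134 CPM in EpithelialKO lungs, against 117, 103, 102, 88.6 and 128 CPM in Flox lungs. The groups overlapped almost entirely, with EpithelialKO mice 17 and 20 low and mice 21 and 22 high, and the log2 fold change was -0.0089 with a 95% interval from -0.33 to 0.32. Col4a4 had 28.5, 40.3, 26.0, 54.2 and 46.1 CPM in EpithelialKO lungs, against 53.3, 51.5, 41.5, 39.8 and 69.1 CPM in Flox lungs. The same EpithelialKO mice were low as for Col4a3, and Flox mouse 6 was high. Its log2 fold change was -0.39 ± 0.20 (SE, edgeR adjusted p = 0.455), and -0.25 without Flox mouse 6. On the X chromosome, Col4a5 averaged 63.6 CPM in EpithelialKO and 64.7 CPM in Flox lungs (log2 fold change -0.025, 95% interval from -0.29 to 0.23). Its neighbour Col4a6, a chain of smooth muscle and other basement membranes, averaged 14.0 CPM in EpithelialKO and 12.9 CPM in Flox lungs (0.11, 95% interval from -0.24 to 0.47).

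Collagen VI, the beaded filament that links cells to fibrils, had all 3 chains negative (median log2 fold change -0.32), against 49.9% of all genes. Col6a1 had 71.4, 91.2, 72.6, 108 and 122 CPM in EpithelialKO lungs, against 115, 106, 113, 74.6 and 162 CPM in Flox lungs. Col6a2, which lies next to it on chromosome 10 (76595756 to 76623630), had 56.5, 66.1, 58.8, 86.8 and 80.4 CPM in EpithelialKO lungs, against 93.8, 93.7, 89.5, 84.3 and 145 CPM in Flox lungs. For Col6a2 the overlap came from EpithelialKO mouse 21 and Flox mouse 5, and Flox mouse 6 stood far above every other mouse. The log2 fold changes were -0.29 ± 0.19 for Col6a1 and -0.54 ± 0.16 for Col6a2 (SE; edgeR adjusted p = 0.573 and 0.171). Without Flox mouse 6 they were -0.13 for Col6a1 and -0.37 for Col6a2. Col6a3, the largest chain, had 49.1, 43.5, 49.9, 48.5 and 46.1 CPM in EpithelialKO lungs, against 44.8, 52.8, 51.6, 70.8 and 75.1 CPM in Flox lungs. The EpithelialKO mice were close together, Flox mice 5 and 6 were high, and Flox mouse 2 lay within the EpithelialKO range. The gene averaged 47.4 ± 2.62 CPM in EpithelialKO and 59.0 ± 13.2 CPM in Flox lungs (SD, n = 5 each), with -0.32 ± 0.13 on the log2 scale (SE, edgeR adjusted p = 0.335).

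The transmembrane and multiplexin collagens held some of the lowest p values. Col13a1 (chromosome 10, 61838234 to 61979206), a transmembrane collagen of alveolar fibroblasts, had 22.2, 18.6, 20.3, 16.7 and 19.8 CPM in EpithelialKO lungs, against 31.3, 28.0, 24.1, 22.9 and 34.2 CPM in Flox lungs. The groups did not overlap, though EpithelialKO mouse 17 and Flox mouse 5 were close. Its log2 fold change was -0.53 ± 0.14 (SE, edgeR adjusted p = 0.144) and -0.49 without Flox mice 4 and 6. Col17a1, the hemidesmosomal collagen of basal epithelial cells, was low, at 1.93 ± 0.667 CPM in EpithelialKO and 3.43 ± 0.446 CPM in Flox lungs (SD, n = 5 each). It too did not overlap between groups, with the lowest fold change of all members, -0.82 ± 0.32 (SE, edgeR adjusted p = 0.299). The basal cell markers Krt5, Krt14 and Trp63 were too low to be tested. They had 69, 176 and 59 counts over EpithelialKO mice, and 8, 38 and 51 over Flox mice. EpithelialKO mouse 21 had the highest sum of these markers, 10.5 CPM. Col23a1 had 60.8, 60.3, 53.3, 49.4 and 37.5 CPM in EpithelialKO lungs, against 72.4, 56.4, 48.7, 57.5 and 45.1 CPM in Flox lungs, with overlap and a log2 fold change of -0.10 (95% interval from -0.41 to 0.20).

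Col18a1 (chromosome 10, 77052178 to 77166530), the basement membrane multiplexin whose end fragment is endostatin, had 19.4, 23.5, 17.2, 16.2 and 13.6 CPM in EpithelialKO lungs, against 25.4, 25.2, 26.5, 22.6 and 32.7 CPM in Flox lungs. Only EpithelialKO mouse 18 and Flox mouse 5 crossed. The log2 fold change was -0.56 ± 0.15 (SE, edgeR adjusted p = 0.154) and -0.44 without Flox mice 4 and 6. The related Col15a1 averaged 4.57 ± 0.964 CPM in EpithelialKO and 6.97 ± 2.27 CPM in Flox lungs (SD, n = 5 each), with -0.61 ± 0.27 (SE, edgeR adjusted p = 0.378), and Flox mouse 2 had its lowest value, 3.21 CPM.

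The FACIT collagens, which coat fibrils, had negative fold changes with no unadjusted p under 0.05 in edgeR (median -0.21, and -0.095 without Flox mouse 6). Col12a1 had 27.5, 25.8, 18.3, 30.1 and 28.1 CPM in EpithelialKO lungs, against 27.7, 32.7, 25.1, 21.6 and 33.5 CPM in Flox lungs. Col16a1 had 17.5, 22.5, 18.3, 16.4 and 16.7 CPM in EpithelialKO lungs, against 17.4, 17.6, 19.4, 24.2 and 27.4 CPM in Flox lungs. In both the groups overlapped, and the log2 fold changes were -0.12 (95% interval from -0.44 to 0.21) and -0.21 (from -0.54 to 0.12). Col14a1, a marker of adventitial and matrix fibroblasts, averaged 24.7 ± 8.95 CPM in EpithelialKO and 29.0 ± 6.46 CPM in Flox lungs (SD, n = 5 each), with a log2 fold change of -0.23. Leaving out Flox mouse 6 gave -0.095, and leaving out EpithelialKO mouse 22 gave -0.44. Among the remaining chains, Col8a2, of the hexagonal network collagen VIII, had 9.47, 7.64, 5.68, 5.84 and 7.89 CPM in EpithelialKO lungs, against 13.7, 13.5, 7.50, 10.1 and 6.25 CPM in Flox lungs. Here Flox mice 4 and 6 had the lowest Flox values, the reverse of Col3a1, and the log2 fold change of -0.49 (edgeR adjusted p = 0.427) was -0.77 without them. Its partner Col8a1 had a log2 fold change of 0.030 (95% interval from -0.43 to 0.49), and Col7a1, the anchoring fibril collagen, -0.35 (from -1.06 to 0.35) at 3.49 CPM in EpithelialKO and 4.47 CPM in Flox lungs.

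The processing genes did not follow the chains as a block. P4ha2 (chromosome 11, 54100924 to 54131668), a catalytic subunit of prolyl 4-hydroxylase, had 71.8, 84.0, 58.8, 62.6 and 66.3 CPM in EpithelialKO lungs, against 49.6, 43.1, 48.7, 64.9 and 36.3 CPM in Flox lungs. All EpithelialKO mice lay above the Flox mean, and Flox mouse 5 was the one Flox mouse within their range. Its log2 fold change was 0.50 ± 0.14 (SE, edgeR adjusted p = 0.158), and 0.39 without Flox mice 4 and 6. Without Flox mouse 5 it was 0.63 with an edgeR adjusted p of 0.0434. P4ha1, the main catalytic subunit, had 83.1, 132, 81.2, 154 and 111 CPM in EpithelialKO lungs, against 104, 98.5, 103, 133 and 91.9 CPM in Flox lungs. EpithelialKO mice spread more widely than Flox mice, and the log2 fold change was 0.084 (95% interval from -0.27 to 0.44).

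The lysyl hydroxylases had log2 fold changes of -0.10 (Plod1, 95% interval from -0.39 to 0.19), -0.018 (Plod2, from -0.31 to 0.27) and -0.22 (Plod3, from -0.45 to 0.0089). Plod3 shares 15.6% of its exonic bases with Znhit1 on the other strand, and the strand setting of the counting is not given in the sources used here. Next came overlaps on the other strand of 9.32% for Plod2, 6.58% for Col4a3 and 5.57% for Loxl2. Pcolce shares 5.57% with Fbxo24 on the same strand. Serpinh1, the collagen chaperone, had 193, 358, 233, 342 and 194 CPM in EpithelialKO lungs, against 296, 216, 248, 285 and 230 CPM in Flox lungs. EpithelialKO mice 18 and 21 were high, as they were for P4ha1, and the other 3 were low or within the Flox range. The log2 fold change was 0.051 with a 95% interval from -0.32 to 0.42.

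Pcolce, which enhances cleavage of the procollagen end by Bmp1, had 85.6, 80.3, 76.7, 95.2 and 117 CPM in EpithelialKO lungs, against 108, 120.4, 112, 122 and 135 CPM in Flox lungs. Only EpithelialKO mouse 22 lay within the Flox range. The log2 fold change was -0.40 ± 0.11 (SE, edgeR adjusted p = 0.166), and -0.36 without Flox mice 4 and 6. Its paralog Pcolce2 had 162, 185, 191, 181 and 153 CPM in EpithelialKO lungs, against 212, 169, 212, 170.1 and 214 CPM in Flox lungs. The groups overlapped at a log2 fold change of -0.17 (95% interval from -0.38 to 0.046). Bmp1 itself averaged 56.6 ± 13.1 CPM in EpithelialKO and 53.5 ± 10.3 CPM in Flox lungs (SD, n = 5 each), with a log2 fold change of 0.083 that was -0.070 without EpithelialKO mouse 17.

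Of the crosslinking enzymes, Lox had 54.1, 41.0, 43.4, 32.3 and 29.5 CPM in EpithelialKO lungs, against 44.2, 30.1, 53.5, 41.9 and 43.5 CPM in Flox lungs. Loxl2, which also acts on collagen IV, had 21.6, 11.2, 14.8, 10.1 and 11.2 CPM in EpithelialKO lungs, against 13.4, 17.6, 18.4, 25.4 and 28.5 CPM in Flox lungs. Both overlapped, and EpithelialKO mouse 17 was the highest EpithelialKO mouse for each. Lox had a log2 fold change of -0.091 (95% interval from -0.45 to 0.26) and Loxl2 one of -0.59 ± 0.23 (SE, edgeR adjusted p = 0.308).

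Ratios of chains within each mouse, which do not depend on library scaling, were compared for 8 pairs with exact permutation of the group labels (two-sided), adjusted over the 8 by Benjamini-Hochberg. None passed, the lowest adjusted p being 0.127, and 2 had an unadjusted p under 0.05. The smallest p that 5 mice against 5 can give is 0.00794, so a single ratio could not pass this adjustment on its own. The log2 ratio of Col4a3 to Col4a4 was 1.48 ± 0.15 in EpithelialKO and 1.10 ± 0.16 in Flox lungs (SD, n = 5 each), a difference of 0.38 (exact permutation p = 0.0159, adjusted p = 0.127). That of Col6a2 to Col6a1 was -0.40 ± 0.13 in EpithelialKO and -0.16 ± 0.20 in Flox lungs (difference -0.25, exact permutation p = 0.0397, adjusted p = 0.159). For both ratios the groups overlapped. The pairs of collagen I and of Col4a1 with Col4a2 had ratios close to each other in both groups: Col1a1 to Col1a2 differed by -0.029 and Col4a1 to Col4a2 by 0.0070 on the log2 scale (exact permutation p = 0.849 and 0.937). Per length, Col1a1 stood at 0.771 of Col1a2 in EpithelialKO and at 0.787 in Flox lungs. The remaining differences were -0.30 for Col5a1 to Col5a2, 0.22 for Col3a1 to Col1a1, 0.20 for Col4a3 to Col4a1 and -0.0070 for Col6a3 to Col6a1 (exact permutation p = 0.0794, 0.302, 0.405 and 0.976).

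**Figure D4:**
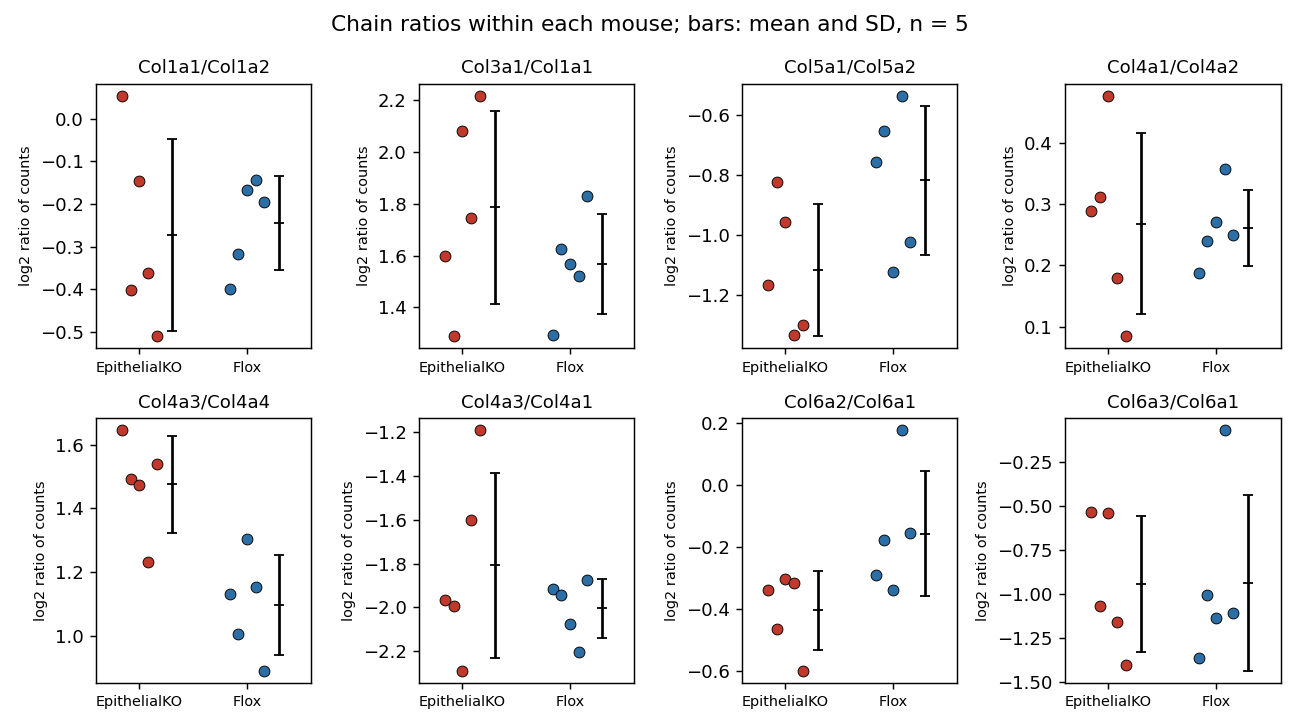
Log2 ratio of the counts of 2 chains within each mouse for the 8 pairs, EpithelialKO left of Flox, with bars for the mean and SD (n = 5 each); the vertical axes differ and do not start at 0. Col4a3 to Col4a4 is higher and Col6a2 to Col6a1 lower on average in EpithelialKO, with overlap, while the collagen I pair has means of -0.27 and -0.25.

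Across mice, the members took 0.252, 0.292, 0.239, 0.290 and 0.257% of all counts in EpithelialKO libraries, against 0.314, 0.282, 0.329, 0.299 and 0.381% in Flox libraries. EpithelialKO mice 18 and 21 lay above the lowest Flox mouse, and Flox mouse 6 stood highest. Flox mouse 6 had the highest value of the 10 mice in 20 of the 38 members, 17 of them chains, and EpithelialKO mouse 20 the lowest value in 10. Relative to the Flox mean of log2 CPM, the median chain stood at -0.30, -0.29, -0.50, -0.19 and -0.31 in EpithelialKO mice, and at -0.081, -0.083, -0.064, -0.072 and 0.31 in Flox mice. Every EpithelialKO mouse lay below every Flox mouse in this median, and Flox mouse 6 stood well above the other Flox mice. The same measure is not given for other sets of genes, and the chains were chosen with earlier results known. Taken singly, 3 of the 38 members had all EpithelialKO values below all Flox values, against 1.48% of all genes. For the fibrillar chains the medians were -0.35, -0.44, -0.43, -0.41 and -0.47 in EpithelialKO mice, against -0.30, -0.35, 0.21, -0.017 and 0.36 in Flox mice, with Flox mouse 3 at the level of EpithelialKO mouse 17. For the processing genes they were -0.27, -0.033, -0.12, 0.022 and -0.099 in EpithelialKO mice, against 0.017, -0.15, -0.029, 0.17 and 0.033 in Flox mice, and overlapped.

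**Figure D5:**
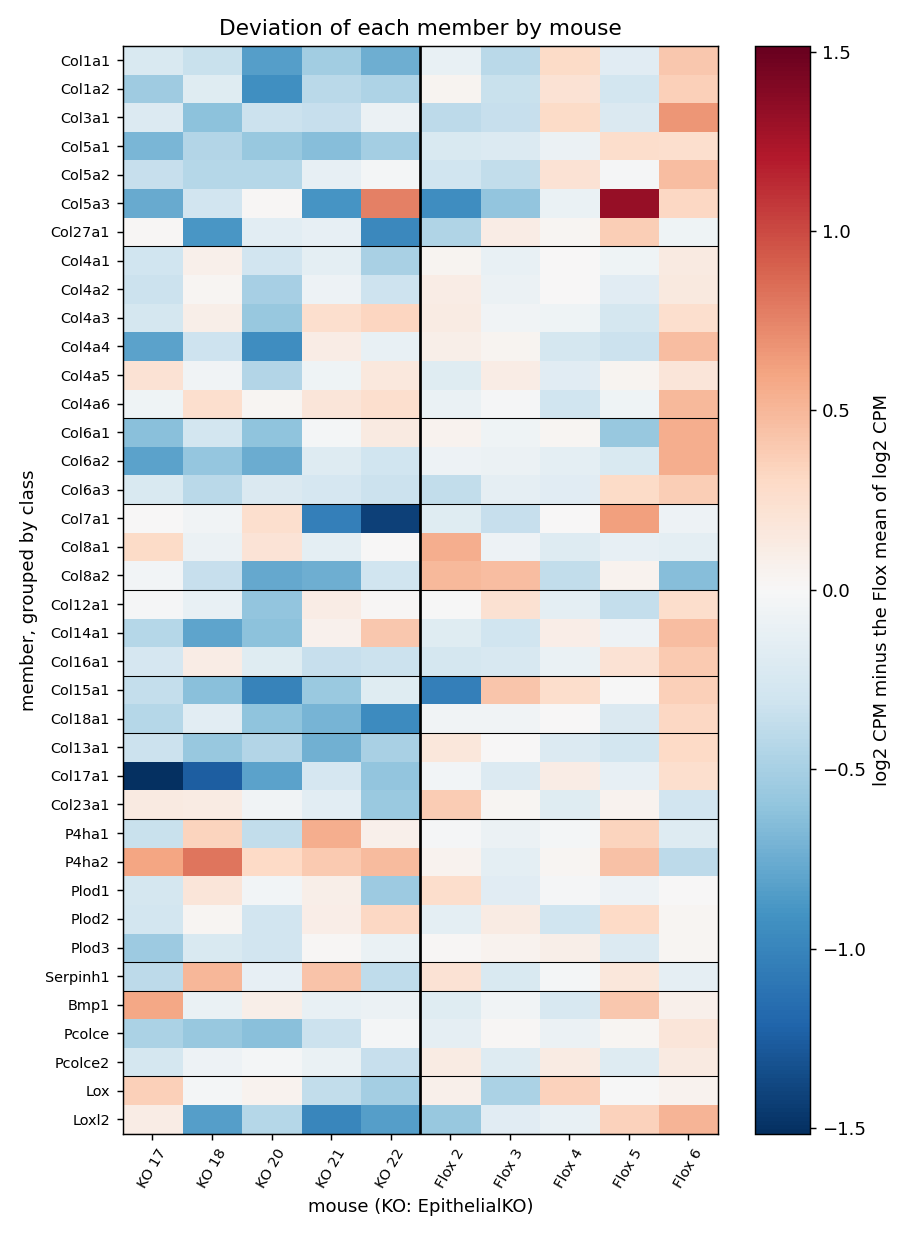
Log2 CPM of the 38 members tested in each mouse minus the Flox mean of that member, EpithelialKO mice left of Flox mice, members grouped by class. Flox mouse 6 is highest in 20 members, and P4ha2 is above the Flox mean in all EpithelialKO mice.

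Other genes of collagen biology were read from lists of pathway members, and none of them passed in edgeR over all genes. Of 12 further genes of collagen modification and folding in the endoplasmic reticulum, 9 were negative (median -0.15), against 49.9% of all genes. At an unadjusted p under 0.05, where 6.52% of all genes were lower, 2 of the 12 were lower. Those were P3h3, a protein of the collagen prolyl 3-hydroxylase family (log2 fold change -0.48 ± 0.12), and P4hb, the disulfide isomerase that is the partner subunit of the P4ha proteins (-0.37 ± 0.098). P4hb averaged 256 ± 24.7 CPM in EpithelialKO and 332 ± 35.0 CPM in Flox lungs (SD, n = 5 each; edgeR adjusted p = 0.145). Of 5 genes of procollagen export 0 had an unadjusted p under 0.05 in edgeR, with Sec24d (-0.20 ± 0.11) and the transcription factor Creb3l1 (0.26 ± 0.15) lowest in p. Among 7 other proteinases and crosslinking enzymes tested, 6 were negative, against 49.9% of all genes, and 3 were lower at that p, against 6.52%. The lysyl oxidase Loxl4 had 2.14 ± 0.865 CPM in EpithelialKO and 4.94 ± 1.16 CPM in Flox lungs (log2 fold change -1.20 ± 0.32, edgeR adjusted p = 0.153), and Loxl1 had -0.57 ± 0.19.

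Collagen receptors included the lowest p of the pathway lists, with 7 of 9 negative, against 49.9% of all genes. At an unadjusted p under 0.05, 3 were lower, against 6.52% of all genes. Ddr2, the receptor kinase for fibrillar collagen, averaged 72.8 ± 12.3 CPM in EpithelialKO and 111 ± 10.4 CPM in Flox lungs (SD, n = 5 each), with -0.61 ± 0.11 on the log2 scale (SE, edgeR adjusted p = 0.0548). Mrc2, the receptor that takes up collagen fragments, had -0.59 ± 0.13 (edgeR adjusted p = 0.102). Of 9 proteoglycans and other fibril-binding proteins 6 were negative, against 49.9% of all genes, and 3 were positive (median -0.12). The 2 lower at an unadjusted p under 0.05, where 6.52% of all genes were, were Prelp (-0.55 ± 0.14) and Bgn (-0.48 ± 0.18). Of 16 other collagen chains 3 were expressed enough to test, with Col20a1 (-0.30) and Col11a2 (-0.20) lowest in p.

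Marker genes of cells that make collagen had mostly negative fold changes, as the chains did, where 49.9% of all genes were negative. Of 10 fibroblast markers all were negative (median log2 fold change -0.31), 5 at an unadjusted p under 0.05 where 6.52% of all genes were lower, and their summed level was 3058 to 3448 CPM in EpithelialKO and 3484 to 4562 CPM in Flox lungs. Most of that sum was Inmt, which averaged 1949 CPM in EpithelialKO and 2089 CPM in Flox lungs (log2 fold change -0.10). Smooth muscle and pericyte markers were negative in 12 of 13 (median -0.44), 7 of them at that p, with sums of 430 to 700.3 CPM in EpithelialKO and 604 to 749 CPM in Flox lungs. Endothelial markers were negative in 9 of 9 (median -0.45), 8 of them at that p, with sums of 2379 to 2888 CPM in EpithelialKO and 2900.3 to 3968 CPM in Flox lungs, and the 5 mesothelial markers were all negative (median -0.58), 0 at that p in edgeR, with sums of 124 to 502 CPM in EpithelialKO and 277 to 629 CPM in Flox lungs. AT1 markers were mixed, with 4 of 7 negative (median -0.027) and sums of 3729 to 5948 CPM in EpithelialKO and 4163 to 5518 CPM in Flox lungs. AT2 and pan-epithelial markers were positive in 8 of 8 each (medians 0.25 and 0.34), with 5 of each list higher at an unadjusted p under 0.05, against 5.87% of all genes. Of the 6 cartilage markers 2 could be tested and both were positive, Chad at 25.8 CPM in EpithelialKO and 22.3 CPM in Flox lungs (log2 fold change 0.21) and Hapln1 at 1.10 CPM in EpithelialKO and 0.667 CPM in Flox lungs (0.73). Comp had 29 counts over EpithelialKO and 20 over Flox mice, Acan had 0 over EpithelialKO and 4 over Flox mice, and Matn1 and Cnmd had 0 counts in all mice. None of these markers passed in edgeR over all genes, and the part of any cell type in the collagen values was not tested.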

How the data were processed

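Whole-lung polyadenylated RNA was sequenced from 10 mice, 5 EpithelialKO and 5 Flox. The submitters' processing notes name cutadapt, HISAT2 and GRCm38. Their versions, the counting tool, the annotation and the strand setting of the counting are not given in the sources used. The deposited table holds raw counts, as whole numbers for each Entrez gene and mouse, not normalized by the authors. Entrez IDs were matched to RefSeq symbols (25275 of 27179), and promoters were read from RefSeq on GRCm38.p6. The 10 libraries were treated as 10 mice, since no pair had a chi-square below 17.8 per degree of freedom.

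The main test was edgeR 4.0.16 (R 4.3.3): genes kept by filterByExpr, TMM factors, the quasi-likelihood F test with group as its only term, and Benjamini-Hochberg adjustment over all 15301 genes tested, at 0.05. DESeq2 1.42.0, its size factors, no filter, each mouse left out, Flox mice 4 and 6 left out, and a covariate for Xist and Y-linked counts were alternatives. Levels per kb use exon lengths of GENCODE M21. The fit was tested on simulated data. P-values set a group difference against the spread between these mice, and do not measure that spread.

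The members and all gene lists were chosen with earlier results of these data known. Every member is named. Values per mouse are given for the member of highest mean CPM and that of lowest p in each class and for chains of a described ratio, and in each pathway list the 2 genes of lowest p are named. The cartilage markers were named after their values were seen.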

Additional observations from a re-analysis of the deposited data

Results flagged for a closer look

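In 6 of 92 groups of 5 mice, a single mouse stood apart from the other 4 by Dixon's test; chance alone gives about 5% of groups. Bmp1 stood at 79.5 CPM in EpithelialKO mouse 17, against 48.8 to 56.0 CPM in the other EpithelialKO mice. Col6a2 stood at 145 CPM in Flox mouse 6, against 84.3 to 93.8 CPM in the other Flox mice. Col8a1 stood at 8.47 CPM in Flox mouse 2, against 5.05 to 5.50 CPM in the other Flox mice. P4ha1 stood at 133 CPM and Plod3 at 58.8 CPM in Flox mouse 5, against 91.9 to 104 CPM and 68.5 to 72.1 CPM in the other Flox mice. The log2 ratio of Col6a3 to Col6a1 was -0.074 in Flox mouse 5, against -1.36 to -1.004 in the other Flox mice. Flox mouse 5 also had the lowest total count, and the part of that in these values was not tested.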

How the results depend on the processing

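No paired analysis was possible because the labels give the groups no shared mouse numbers. The count of genes changed, 6 in edgeR, was 275 in DESeq2, 34 with no filter on low counts, 0 without Flox mice 4 and 6, 1 with the class by Xist and Y-linked counts as a covariate, and 0 to 48 when 1 mouse was left out. The count of members changed, 0 in edgeR, was 7 in DESeq2 and 0 to 1 when 1 mouse was left out. The count of members lower at an unadjusted p under 0.05, 13, was 6 without Flox mice 4 and 6, 8 with that covariate, and 8 to 15 when 1 mouse was left out. Since Flox mice 4 and 6 alone made up the class of high Xist, the covariate fit rests on the same group contrast as leaving them out. The median of the members stayed negative in every fit run, from -0.31 to -0.18 with 1 mouse left out.

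Some fold changes changed sign, most of them near 0 but Col3a1 (-0.37) and Col5a3 (-0.33) not. Without Flox mice 4 and 6 they were 0.017 for Col3a1, 0.059 for Col4a3, -0.091 for Col8a1, -0.0076 for Serpinh1 and 0.048 for Lox. The covariate fit, whose fold changes rest on the same mice and so are no separate check, gave 0.015 for Col3a1 and 0.058 for Col4a3. It gave -0.092 for Col8a1, -0.0084 for Serpinh1 and 0.047 for Lox. When 1 mouse was left out, log2 fold changes ran from -0.10 to 0.10 for Col4a3, -0.17 to 0.0091 for Col23a1, -0.092 to 0.064 for Col4a5, -0.11 to 0.062 for Plod2, -0.084 to 0.15 for Serpinh1, -0.033 to 0.20 for Col8a1, -0.22 to 0.0038 for Lox, -0.66 (without EpithelialKO mouse 22) to 0.15 (without Flox mouse 5) for Col5a3, -0.070 to 0.20 for Bmp1 and -0.056 to 0.18 for P4ha1. Of the ratio differences, those of Col1a1 to Col1a2 ran from -0.11 to 0.031, of Col4a1 to Col4a2 from -0.045 to 0.053 and of Col6a3 to Col6a1 from -0.11 to 0.21, and Col1a1 to Col1a2 was 0.014 without Flox mice 4 and 6. The cause of these changes was not tested.

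At 5 mice a group, members with few counts, such as Col5a3, Col7a1 and Col17a1, have wide intervals.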
